A study of Mus musculus with 6 samples.

Results

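Estrogens act on cells through receptors, and bisphenol-A, a building block of plastics, can act like an estrogen. The RNA of 10 receptor genes, not all of them receptors for estrogens, was measured here in mouse pancreatic islets. They were the estrogen receptors Esr1, Esr2 and Gper1, the estrogen-related receptors Esrra, Esrrb and Esrrg, and the progesterone receptor Pgr. The others were the aryl hydrocarbon receptor Ahr and the xenobiotic receptors Nr1i2 and Nr1i3. The members were chosen by symbol: every probe set (a group of short probes for a transcript) that the platform annotation assigned to 1 of these symbols alone was taken, dim ones included. This gave 22 probe sets of 45037 tested, for 10 of 18193 named genes. The islets came from 30-day-old wild-type males of the OF-1 strain, an outbred mouse stock, whose mothers had been dosed from day 9 to day 16 of gestation with vehicle, with 10 µg/kg/day of bisphenol-A (BPA10) or with 100 µg/kg/day (BPA100). Each group had 2 Affymetrix arrays. By the labels, vehicle replicate 1 was a pool of 5 mice, BPA10 replicate 2 a pool of 2, and each other array held islets of 1 mouse. The labels give no litter, and the offspring met the compound only before birth. The series asks how exposure in the womb bears on beta-cell growth in early life, and its comparisons ask here whether receptor RNA differed weeks after dosing ended.

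Classical estrogen receptors are nuclear proteins that bind estradiol and then DNA or other transcription factors, while Gper1 is a G protein-coupled receptor that signals from membranes. In islets, estrogen receptors are known for effects on beta-cell survival, insulin synthesis and potassium channel activity. The estrogen-related receptors resemble them in sequence but bind no natural estrogen, and the human gamma form binds bisphenol-A tightly. Ahr responds to dioxins and other aromatic compounds, and Nr1i2 (PXR) and Nr1i3 (CAR) switch on drug-metabolising enzymes, mainly in liver and gut. In human cells PXR is activated by bisphenol-A. Pgr binds progesterone and is a well-known target gene of Esr1 in reproductive tissues. Arrays measure RNA only, so binding of bisphenol-A was not measured.

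Values are MAS5 signals, which the authors had scaled to a common trimmed mean in every array. Array medians lay between 33 and 40. Any 2 arrays had the same value for 3.7% to 4.7% of probe sets. Correlations were 0.968 between the arrays of each group and 0.945 to 0.975 between groups, over the 27022 probe sets at or above the 40th percentile of mean log2 value, which corresponds to a signal of 23.3 and is called bright below. Islet markers were present, with Ins2 between 2680 and 4873 and Gcg between 8754 and 12171 over the 6 arrays, and no islet marker of the 12 measured was below 278. Acinar cell markers, from the surrounding exocrine tissue, summed over 11 genes to 60891 and 44360 on the vehicle arrays, 85065 and 80096 on the BPA10 arrays and 81843 and 55426 on the BPA100 arrays, with 0 of the 11 at 0 on any array. Of these 11, 7 were higher in BPA10 than in vehicle islets at an unadjusted p under 0.05 and 1 in BPA100, and the acinar protease gene Prss3 differed by 2.31 ± 0.39 and 1.46 ± 0.39 (adjusted p = 0.7149 and 1.0). Over all probe sets, 6.48% in BPA10 and 4.08% in BPA100 had an unadjusted p under 0.05, in either direction. The median difference of the acinar markers was 0.62 in BPA10 and 0.42 in BPA100, and 0.26 and 0.19 after quantile normalization. For the 12 islet markers it was 0.31 and 0.16, and -0.02 and 0.00 after that normalization. In whole islets, fewer cells of a type and less RNA per cell cannot be told apart. Differences are of log2(signal + 1). The added 1 draws differences of dim probe sets towards 0, but a few signal units can also make them large. In BPA10 against vehicle, all receptor probe sets ran from -1.76 to 1.32, and the bright ones from -0.42 to 0.62. The standard error (SE) is that of limma, and p-values are adjusted over all 45037 probe sets. As nothing says that the arrays came from separate litters, they cover just the array-to-array spread, which may be technical.

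Promoter sequences from RefSeq (assembly GRCm38.p6, 250 bases before to 50 after a start) were available for 9 of the 10 genes, in 14 windows. They are shown because receptors of this set are themselves read out through short DNA motifs. The letters of the classical estrogen response element (GGTCA and TGACC with any 3 bases between), of its AGGTCA hexamer and of the estrogen-related receptor element (TCAAGGTCA, which contains that hexamer) were found on either strand in 0 of the 14 windows, against 0.07%, 16.3% and 0.423% of all 32851 windows. The core GCGTG of the xenobiotic response element, which Ahr and its partner Arnt bind, was found in 4 windows of 3 genes, against 32.4% of all windows. A match is a run of letters and not a measured site. Stretches around the first core matches are given 5′ to 3′ on the gene's strand, with the core in capitals on whichever strand it lay. For Esrra (chr19:6921909-6921976, minus strand) the capitals hold 2 overlapping cores, on opposite strands. The Esr1 stretch is chr10:4710132-4710196, and the Esrrg stretches are chr1:187651558-187651622 and chr1:187651991-187652028, all on the plus strand.
Esrra: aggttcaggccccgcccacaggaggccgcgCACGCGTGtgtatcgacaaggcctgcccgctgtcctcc
Esr1: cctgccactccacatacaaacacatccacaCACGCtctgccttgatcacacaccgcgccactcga
Esrrg, upstream start: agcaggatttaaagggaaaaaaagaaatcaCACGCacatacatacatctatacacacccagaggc
Esrrg, downstream start: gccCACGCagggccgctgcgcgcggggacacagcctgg

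No receptor probe set passed the test in any comparison. In islets of BPA10 offspring 16 of the 22 probe sets read higher than in vehicle offspring and 6 lower, with a median difference of 0.35, against a median of 0.00 over all probe sets. In limma 0 of 22 passed (0% of all probe sets did), and 1 had an unadjusted p under 0.05, where 6.48% of all probe sets did. The BPA10 and vehicle arrays did not overlap for 11 of the 22, against 33.2% of all probe sets. Of the 11 receptor probe sets with a signal at or above the 40th percentile, 7 read higher and 4 lower, with a median difference of 0.18. For 3 of these 11 (27.3% of them) the arrays did not overlap. In BPA100 islets 12 read higher and 9 lower than in vehicle islets, with a median difference of 0.06 against 0.00. Here 0 passed in limma (0% of all), 0 had an unadjusted p under 0.05 (4.08% of all), and arrays did not overlap for 10 of 22 (29.9% of all). Of the same 11 brighter probe sets 7 read higher and 4 lower in BPA100, with a median of 0.07. For 6 of them (54.5% of the 11) the arrays did not overlap. The share over all bright probe sets was not counted, so the counts for the bright receptors have no matching rate. The comparisons of BPA10 and of BPA100 with vehicle share the vehicle arrays.

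Setting BPA100 against BPA10, 6 probe sets read higher and 16 lower, with a median difference of -0.18 against 0.01 over all probe sets. None passed in limma (0% of all), 0 had an unadjusted p under 0.05 (4.98% of all), and arrays did not overlap for 6 of 22 (29.5% of all). With both doses set against vehicle, 0 passed (0% of all), 2 had an unadjusted p under 0.05 (5.2% of all) and 7 did not overlap (12.7% of all). The moderated F test over the 3 groups gave 0 calls (0% of all), 0 unadjusted p under 0.05 (5.1% of all) and a smallest unadjusted p of 0.0684. With 2 arrays a group, the SE of a receptor probe set ran between 0.14 and 1.15 for a dose against vehicle.

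**Figure D1:**
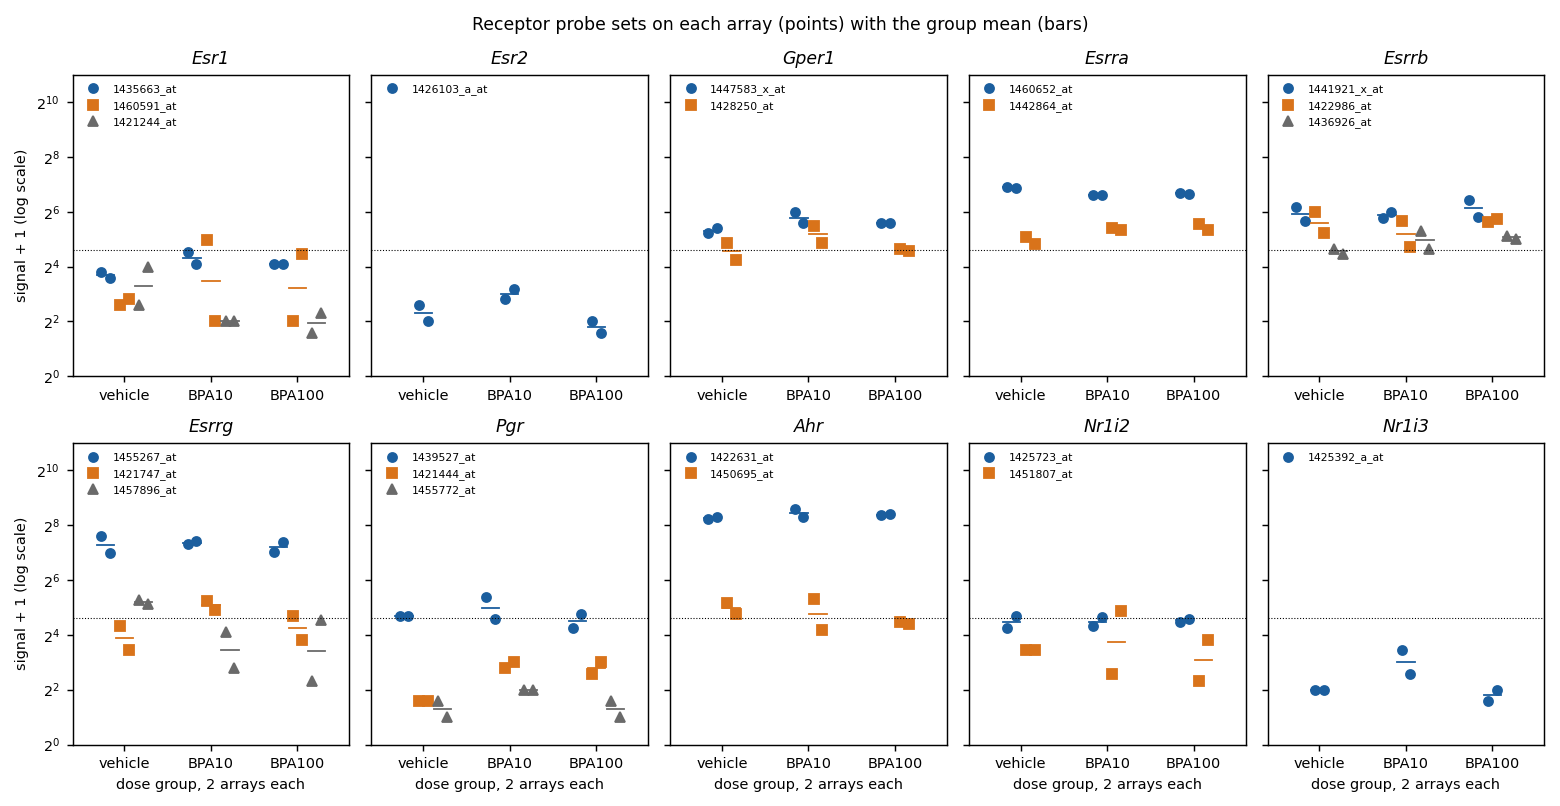
Signal + 1 on a log axis for the 22 probe sets of the 10 receptor genes, with 1 point for each array, a bar at the mean of the log values of each group (vehicle, BPA10 and BPA100, 2 arrays each) and a dotted line at the 40th percentile of all probe sets. Probe sets of Esr1, Esr2, Nr1i2 and Nr1i3 have their group means below the line, while the brighter Ahr probe set read between 298 and 382 on every array.

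Of the 22 probe sets 11 were bright, belonging to 6 genes: Gper1, Esrra, Esrrb, Esrrg, Pgr and Ahr. Esr1, Esr2, Nr1i2 and Nr1i3 had no bright probe set. The 11 dim ones read between 1 and 38 over the 6 arrays, and the bright ones between 17 and 382. Only 2 genes, Esr2 and Nr1i3, had a single probe set. Of the 8 others, 5 had probe sets that differed in sign between BPA10 and vehicle, and 6 between BPA100 and vehicle.

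Esr1, the estrogen receptor alpha gene, was dim on all 3 of its probe sets, and they did not move together. Probe set 1435663_at read 13 and 11 on the vehicle arrays, 22 and 16 on the BPA10 arrays and 16 and 16 on the BPA100 arrays. Every array of an exposed group was thus above both vehicle arrays, by 0.61 ± 0.45 in BPA10 and 0.39 ± 0.45 in BPA100 islets (SE, 2 arrays a group; adjusted p = 0.8545 and 1.0), and by 0.39 in BPA10 without BPA10 replicate 1. Probe set 1421244_at went the other way: it read 5 and 15 on the vehicle arrays, 3 and 3 on the BPA10 arrays and 2 and 4 on the BPA100 arrays. Its differences were -1.29 ± 0.66 and -1.34 ± 0.66, and vehicle replicate 2 alone held its high reading. The remaining probe set, 1460591_at, read 5 and 6 on the vehicle arrays, 30 and 3 on the BPA10 arrays and 3 and 21 on the BPA100 arrays, so that the arrays of each exposed group lay on opposite sides of vehicle. It is annotated to the same transcript record as 1435663_at.

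Esr2, the estrogen receptor beta gene, has 1 probe set here, 1426103_a_at, whose suffix marks probes shared by several transcripts of a gene. It read 5 and 3 on the vehicle arrays, 6 and 8 on the BPA10 arrays and 3 and 2 on the BPA100 arrays. BPA10 lay above both other groups and BPA100 reached no higher than the lower vehicle array. The difference was 0.70 ± 0.54 for BPA10 and -0.50 ± 0.54 for BPA100 against vehicle, and -1.20 ± 0.54 for BPA100 against BPA10 (unadjusted p = 0.0639, adjusted p = 0.9402). Without vehicle replicate 2 the differences from vehicle were 0.40 and -0.79, and without vehicle replicate 1 they were 0.99 and -0.21. These are gaps of a few signal units in a probe set at the 7.2 percentile of all.

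Gper1, the membrane estrogen receptor gene, was bright on both probe sets, and both read higher on average in exposed islets. Probe set 1447583_x_at, whose suffix marks probes that can match other genes, read 36 and 41 on the vehicle arrays, 62 and 47 on the BPA10 arrays and 47 and 47 on the BPA100 arrays. All 4 exposed arrays were above both vehicle arrays. The difference was 0.48 ± 0.28, or 1.39-fold, in BPA10 (95% interval -0.18 to 1.14) and 0.28 ± 0.28, or 1.22-fold, in BPA100 islets (-0.38 to 0.95), with adjusted p = 0.8255 and 1.0. Leaving out BPA10 replicate 1, the highest array, the BPA10 difference was 0.28. The other probe set, 1428250_at, read 28 and 18 on the vehicle arrays, 44 and 28 on the BPA10 arrays and 24 and 23 on the BPA100 arrays. There neither dose was clear of vehicle, and the differences were 0.62 ± 0.42 and 0.06 ± 0.42.

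Pgr, the progesterone receptor gene, is of interest as a target of Esr1. Its bright probe set, 1439527_at, read 25 and 25 on the vehicle arrays, 41 and 23 on the BPA10 arrays and 18 and 26 on the BPA100 arrays. Each exposed group had an array on either side of vehicle, and the differences were 0.29 ± 0.44 and -0.20 ± 0.44; without BPA10 replicate 1 the BPA10 difference was -0.12, and without BPA100 replicate 1 the BPA100 difference was 0.05. The dim probe set 1421444_at had the smallest p of the 22 against vehicle. It read 2 and 2 on the vehicle arrays, 6 and 7 on the BPA10 arrays and 5 and 7 on the BPA100 arrays, and the exposed arrays all lay above vehicle. Its differences were 1.32 ± 0.51 in BPA10 (unadjusted p = 0.0376, adjusted p = 0.7636), 1.21 ± 0.51 in BPA100 (adjusted p = 1.0) and 1.26 ± 0.44 for both doses together (unadjusted p = 0.0255, adjusted p = 0.9251). The remaining one, 1455772_at, read between 1 and 3 on every array.

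**Figure D2:**
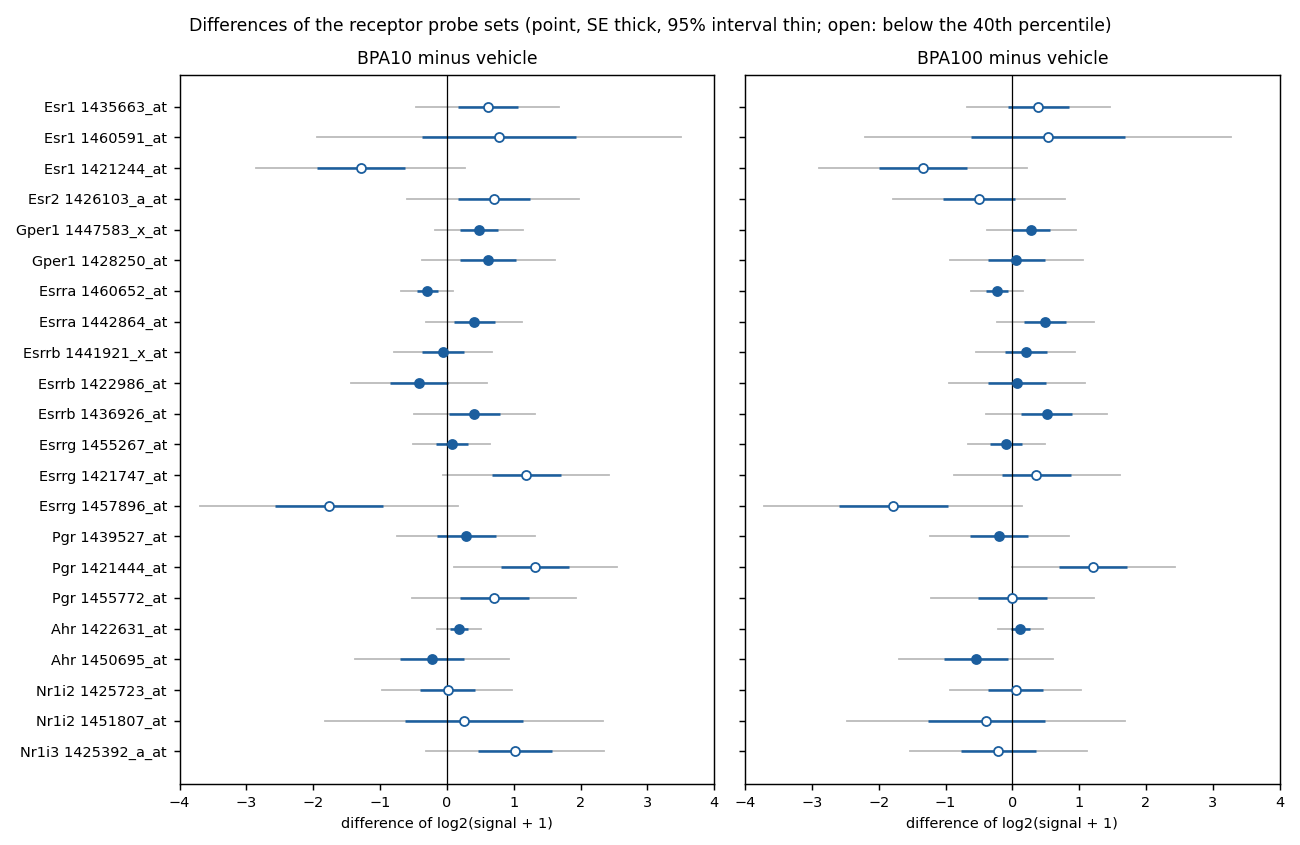
Difference of log2(signal + 1) from vehicle for each receptor probe set, BPA10 on the left and BPA100 on the right, with the SE as a thick and the 95% interval as a thin line; filled points are probe sets at or above the 40th percentile. Intervals of bright probe sets all include 0, and the interval that excludes 0, for the dim Pgr probe set 1421444_at in BPA10 (0.10 to 2.54), is not adjusted for the number of tests.

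The estrogen-related receptor genes were among the better measured members. Esrra encodes a receptor that drives mitochondrial gene expression with the coactivator PGC-1alpha. Its probe set 1460652_at read 119 and 117 on the vehicle arrays, 96 and 96 on the BPA10 arrays and 102 and 99 on the BPA100 arrays. Arrays within a group lay within 0.04 of each other on the log2 scale, and every exposed array was below both vehicle arrays. The difference was -0.29 ± 0.16 in BPA10 (95% interval -0.68 to 0.09) and -0.23 ± 0.16 in BPA100 islets (-0.62 to 0.16), with adjusted p = 0.8212 and 1.0. The SE exceeds what these gaps alone would give because limma draws each probe set's spread towards that of others of like signal. The other Esrra probe set, 1442864_at, separated the groups in the opposite direction: it read 33 and 27 on the vehicle arrays, 41 and 39 on the BPA10 arrays and 46 and 39 on the BPA100 arrays, with differences of 0.41 ± 0.31 and 0.49 ± 0.31. The mean of both probe sets differed by 0.06 in BPA10 and 0.13 in BPA100 islets, so the direction for Esrra depended on the probe set.

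Esrrb, known for its part in pluripotent stem cells and the inner ear, had 3 bright probe sets. Probe set 1441921_x_at read 71 and 50 on the vehicle arrays, 53 and 62 on the BPA10 arrays and 86 and 55 on the BPA100 arrays, and the groups overlapped in every comparison. Its differences from vehicle were -0.06 ± 0.31 and 0.20 ± 0.31. The suffix of this probe set, as for Gper1, marks probes that can match other genes. Probe set 1422986_at read 63 and 36, 50 and 25, and 48 and 52 in the same order of groups, with differences of -0.42 ± 0.43 and 0.07 ± 0.43. Probe set 1436926_at read 24 and 21, 38 and 24, and 34 and 31, with differences of 0.41 ± 0.38 and 0.51 ± 0.38. Only in the last did the BPA100 arrays both exceed the vehicle arrays.

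Esrrg supports oxidative metabolism and is known in mouse islets as a factor of beta-cell maturation after birth. Its bright probe set, 1455267_at, read 194 and 124 on the vehicle arrays, 157 and 169 on the BPA10 arrays and 130 and 164 on the BPA100 arrays. The exposed arrays all lay between the 2 vehicle arrays, of which the pool of 5 mice was the higher. Its differences were 0.07 ± 0.24 in BPA10 (95% interval -0.50 to 0.64) and -0.09 ± 0.24 in BPA100 islets (-0.66 to 0.49). Without vehicle replicate 2 the BPA10 difference was -0.25, and without vehicle replicate 1 the BPA100 difference was 0.23. The dim Esrrg probe sets had opposite signs to each other at both doses, and neither had the sign of the bright one at both. Probe set 1457896_at read 38 and 34 on the vehicle arrays, 16 and 6 on the BPA10 arrays and 4 and 22 on the BPA100 arrays, and all exposed arrays were below vehicle. It had the lowest differences of all receptor probe sets, -1.76 ± 0.81 and -1.78 ± 0.81, and -1.77 ± 0.70 for both doses together (unadjusted p = 0.0408, adjusted p = 0.9251). Probe set 1421747_at read 19 and 10, 37 and 29, and 25 and 13 over the same groups, with a difference of 1.19 ± 0.52 in BPA10 (unadjusted p = 0.0584, adjusted p = 0.7796) and 0.36 ± 0.52 in BPA100 islets.

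Ahr, a ligand-activated transcription factor that induces Cyp1 enzymes, had the brightest probe set of the receptors, with the smallest limma SE. Probe set 1422631_at read 298 and 311 on the vehicle arrays, 382 and 311 on the BPA10 arrays and 329 and 335 on the BPA100 arrays. The BPA100 arrays were above both vehicle arrays, while BPA10 replicate 2 equalled the higher vehicle array. The differences were 0.18 ± 0.14 in BPA10 (95% interval -0.15 to 0.51, adjusted p = 0.8597) and 0.12 ± 0.14 in BPA100 islets (-0.21 to 0.46, adjusted p = 1.0). Without BPA10 replicate 1 the BPA10 difference was 0.03, and without BPA10 replicate 2 it was 0.33. The other probe set, 1450695_at, annotated to the same transcript record, read 35 and 26, 39 and 17, and 21 and 20 over the same groups. Its differences, -0.22 ± 0.48 and -0.54 ± 0.48, had the opposite sign.

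The xenobiotic receptors were dim. Nr1i2 probe set 1425723_at read 18 and 25 on the vehicle arrays, 19 and 24 on the BPA10 arrays and 21 and 23 on the BPA100 arrays. The exposed arrays all lay between the vehicle arrays, with differences of 0.01 ± 0.41 (95% interval -0.97 to 0.98) and 0.05 ± 0.41 (-0.93 to 1.02). Probe set 1451807_at, annotated to the same transcript record, read 10 and 10, 5 and 28, and 4 and 13, so each exposed group straddled vehicle. Nr1i3, measured by 1425392_a_at alone, read 3 and 3 on the vehicle arrays, 10 and 5 on the BPA10 arrays and 2 and 3 on the BPA100 arrays. The BPA10 arrays were above the rest. The difference was 1.02 ± 0.56 against vehicle (adjusted p = 0.8156), or 0.585 without BPA10 replicate 1, and BPA100 differed from BPA10 by -1.23 ± 0.56 (unadjusted p = 0.0648, adjusted p = 0.9402), again over few signal units.

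The spread between arrays of a group set the limits of these values. The median gap between the 2 arrays of a group, on the log2 scale, was 0.25 in vehicle, 0.38 in BPA10 and 0.37 in BPA100 islets for the receptor probe sets, and 0.32, 0.36 and 0.33 for all probe sets. BPA10 replicate 1 held the single highest signal of 10 of the 22 probe sets, among them both of Gper1 and both of Ahr. The share over all probe sets was not counted. This array also had the highest median signal, 40 against 33 to 39 on the others. On that array stellate and fibroblast markers summed to 11561, against 4233 to 6907 on the others, and lymphocyte markers to 472, against 156 to 228, with 0 genes of either list at 0 on any array. Its islet, acinar and Schwann cell marker sums were also the highest (82217, 85065 and 204), while its duct, endothelial and macrophage sums were not. The part of the marker sums in the receptor values was not tested. Among the receptors the widest gap was 2.95, for Esr1 probe set 1460591_at between the BPA10 arrays, and Esrra probe set 1460652_at had gaps of 0.00 in BPA10, 0.04 in BPA100 and 0.02 in vehicle islets. For a dose against vehicle the SE was at least 0.41 for dim receptor probe sets and at most 0.48 for bright ones.

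Genes that act with or downstream of the receptors were described by list, each gene by its probe set of highest mean. In no list did a gene pass in limma in either comparison with vehicle. For the counts at an unadjusted p under 0.05 below, 6.48% of all probe sets in BPA10 and 4.08% in BPA100 had such a p, in either direction. Chaperones and dimer partners had a median difference of -0.22 in BPA10 and -0.33 in BPA100 islets over 9 genes, with 1 gene lower at an unadjusted p under 0.05 in each and 1 higher in BPA100, against medians of 0.02 and 0.00 over all genes. The lower one was Rxrg, a dimer partner of Nr1i2 and Nr1i3, which is dim: it read 28 and 14 on the vehicle arrays, 5 and 6 on the BPA10 arrays and 5 and 3 on the BPA100 arrays. Its differences were -1.69 ± 0.58 (unadjusted p = 0.0233, adjusted p = 0.7636) and -2.09 ± 0.58 (unadjusted p = 0.0090, adjusted p = 1.0). Arnt, the DNA-binding partner of Ahr, read 204 and 172, 224 and 235, and 225 and 352 over the same groups. It differed by 0.29 ± 0.22 and 0.58 ± 0.22 (unadjusted p = 0.0351 in BPA100), while its 4 other probe sets ranged from -0.45 to 0.17 in BPA100. The adjusted p of Arnt was 0.8592 in BPA10 and 1.0 in BPA100. Rxra, a dimer partner found in many tissues, differed by -0.24 ± 0.28 and -0.41 ± 0.28, but its 2 other probe sets gave 0.37 to 0.91 in BPA10 and -0.19 to 0.24 in BPA100. The chaperone gene Hsp90aa1 differed by 0.37 ± 0.18 in BPA10 (0.14 after quantile normalization) and the co-chaperone gene Fkbp5 by -0.46 ± 0.25 in BPA100, with other probe sets on both sides of 0.

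Coregulators, which link receptors to transcription, had 0 genes past the test. The median difference was -0.02 in BPA10 and 0.02 in BPA100 islets over 16 genes, with 0 at an unadjusted p under 0.05 in either. Ppargc1a, which encodes PGC-1alpha, read 29 and 27 on the vehicle arrays, 28 and 29 on the BPA10 arrays and 27 and 25 on the BPA100 arrays, and differed by 0.03 ± 0.34 and -0.10 ± 0.34. Its 4 other probe sets gave -0.19 to -0.02 in BPA10 and -0.87 to -0.14 in BPA100. Crebbp and Ncoa6 differed by -0.20 ± 0.12 and 0.16 ± 0.11 in BPA10, and Ncoa4 and Ncoa1 by 0.24 ± 0.12 and 0.38 ± 0.20 in BPA100, where the 2 other Ncoa1 probe sets gave -0.18 to 0.00. Nr0b2, an orphan repressor of other nuclear receptors, read 25 and 6, 74 and 42, and 56 and 6 over the vehicle, BPA10 and BPA100 arrays (2.07 ± 1.05 in BPA10, unadjusted p = 0.0904). Nr0b1, a related repressor, read 10 or less on every array. Target genes of the estrogen-related receptors, mostly mitochondrial enzymes, had medians of -0.05 and 0.00 over 13 genes, with 0 at an unadjusted p under 0.05. Mdh2 differed by -0.33 ± 0.17 and Vegfa by -0.22 ± 0.13 in BPA10, with Mdh2 at -0.12 ± 0.17 and Vegfa at 0.02 ± 0.13 in BPA100. The other probe set of Mdh2 gave 0.00 and that of Vegfa 0.09 in BPA10, and that of Ndufs7 gave 0.02 in BPA100. In BPA100, Acadm, Ndufs7 and Uqcrc1 differed by 0.13 ± 0.11, -0.15 ± 0.12 and -0.14 ± 0.12, and Cycs, which encodes cytochrome c, by 0.11 ± 0.15 in BPA10 (0.00 after quantile normalization).

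Estrogen receptor target genes had a median difference of 0.08 in BPA10 and 0.07 in BPA100 islets over 16 genes. At an unadjusted p under 0.05, 1 was higher and 1 lower in BPA10, and 0 were higher and 1 lower in BPA100. Greb1, a classical Esr1 target, read 22 and 8 on the vehicle arrays, 34 and 24 on the BPA10 arrays and 34 and 32 on the BPA100 arrays. All exposed arrays exceeded vehicle, by 1.04 ± 0.53 and 1.24 ± 0.53 (unadjusted p = 0.0937 and 0.0542, adjusted p = 0.8074 and 1.0), but its 3 other probe sets gave -1.69 to -0.22 in BPA10 and -0.18 to 1.06 in BPA100. Xbp1, a secretory cell transcription factor also abundant in acinar cells, differed by 0.46 ± 0.15 in BPA10 (unadjusted p = 0.0161, adjusted p = 0.7503; 0.21 after quantile normalization). The acinar and the islet marker sums were higher on both BPA10 arrays than on both vehicle arrays (islet 82217 and 78853 against 63156 and 66370). So were the lymphocyte and Schwann cell marker sums. The part of these sums in the Xbp1 value was not tested. The lower one in BPA10 was Pdzk1, a scaffold protein gene that read 7 or less on every array (-1.50 ± 0.52, unadjusted p = 0.0249). Igf1, the growth factor gene, read 182 and 144, 215 and 126, and 114 and 68, and differed by 0.02 ± 0.33 and -0.87 ± 0.33 (unadjusted p = 0.0361, adjusted p = 1.0 in BPA100). Stellate and fibroblast markers summed to 5936 and 4233 on the BPA100 arrays and to 6907 and 5733 on the vehicle arrays, with 0 of 12 at 0, and their part in the Igf1 value was not tested. Ccnd1, which encodes cyclin D1, differed by 0.27 ± 0.12 in BPA100 (adjusted p = 1.0).

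**Figure D3:**
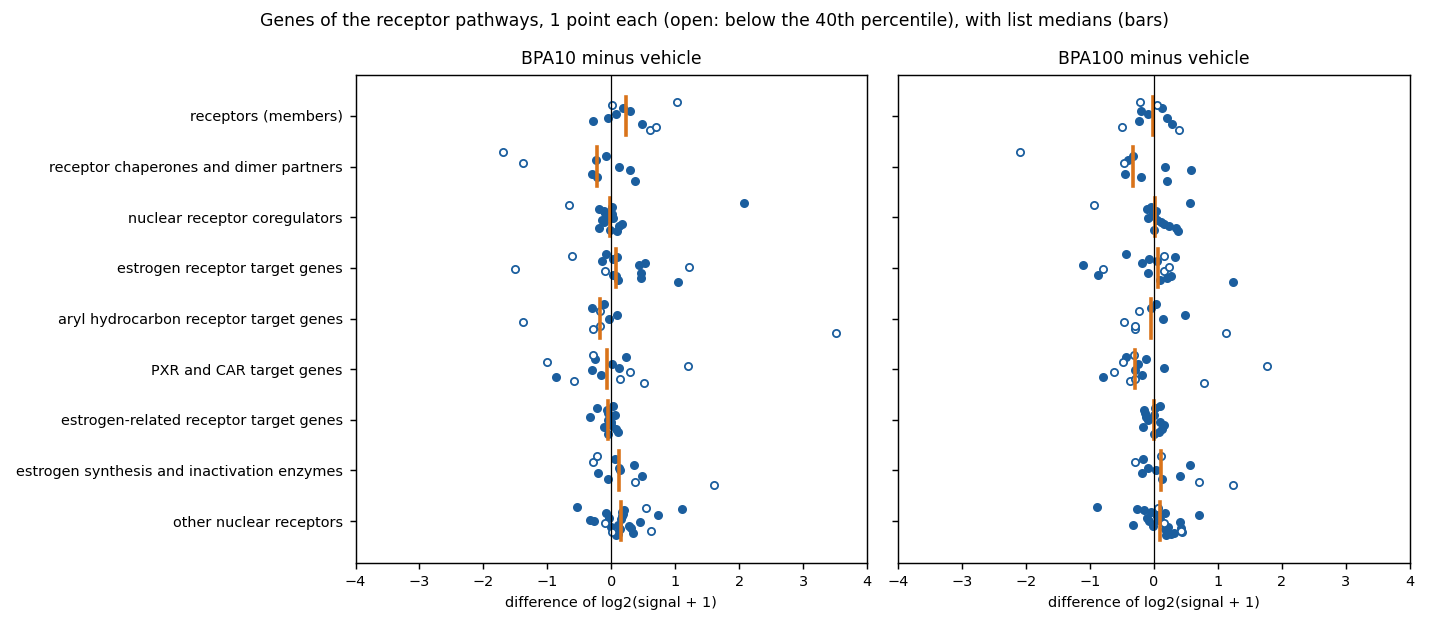
Difference of log2(signal + 1) from vehicle for each gene of the receptor set and of 8 related lists, BPA10 on the left and BPA100 on the right, 1 point a gene (its brightest probe set; open points lie below the 40th percentile) and a bar at the list median. List medians lie between -0.22 and 0.23 in BPA10 and between -0.33 and 0.11 in BPA100, and the point farthest from 0 is the dim Cyp1a1 at 3.51 in BPA10.

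Target genes of Ahr had medians of -0.17 and -0.04 over 9 genes, with 1 higher at an unadjusted p under 0.05 in BPA10 and 0 in BPA100. Cyp1a1, the enzyme gene most used as a readout of Ahr, was dim and uneven: it read 1 and 3 on the vehicle arrays, 39 and 25 on the BPA10 arrays, and 18 and 1 on the BPA100 arrays. Its difference was 3.51 ± 1.06 in BPA10 (unadjusted p = 0.0131, adjusted p = 0.7359) and 1.12 ± 1.06 in BPA100 islets, where the arrays lay on opposite sides of vehicle replicate 2. Among the other Ahr targets, Cyp1b1 differed by -0.18 ± 0.50 and -0.29 ± 0.50 (its 2 other probe sets gave 0.18 to 0.92 in BPA10 and -1.66 to 1.25 in BPA100), Tiparp by -0.04 ± 0.19 and 0.14 ± 0.19, and Nqo1 by 0.09 ± 0.28 and 0.49 ± 0.28. The 2 other Tiparp probe sets gave -0.14 to -0.10 in BPA10 and -0.25 to -0.07 in BPA100. The Ahr repressor gene Ahrr read 8 or less on every array, and Nfe2l2 differed by -0.11 ± 0.12 and 0.03 ± 0.12, with its other probe set at -0.39 and -0.55. PXR and CAR target genes had medians of -0.07 and -0.30 over 14 genes, with 1 at an unadjusted p under 0.05, in BPA100 and higher: the dim transporter gene Abcc2, at 3 and 4 on the vehicle arrays, 6 and 14 on the BPA10 arrays and 12 and 17 on the BPA100 arrays (1.20 ± 0.59 and 1.77 ± 0.59, adjusted p = 0.8037 and 1.0). Cyp2b10, the usual CAR readout, differed by -0.86 ± 0.97 and -0.80 ± 0.97, but its 2 other probe sets gave 0.17 to 0.27 in BPA10 and -0.13 to 0.31 in BPA100. Cyp3a13 differed by -0.58 ± 0.62 and -0.37 ± 0.62. Alas1 and the dim Slco1a4 differed by -0.26 ± 0.15 and -1.0 ± 0.53 in BPA10, where the other Alas1 probe set gave 0.14, and Gstm1 and the dim Cyp2c55 by -0.44 ± 0.21 and -0.63 ± 0.39 in BPA100. The 3 other Gstm1 probe sets gave -0.14 to 0.03 in BPA100.

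Enzymes that make or inactivate estrogens had medians of 0.12 and 0.11 over 11 genes, with 1 at an unadjusted p under 0.05, in BPA100 and higher. This was Hsd17b12, which also serves fatty acid elongation, at 1677 and 1680 on the vehicle arrays, 2131 and 2172 on the BPA10 arrays and 3081 and 1975 on the BPA100 arrays. All exposed arrays exceeded vehicle, by 0.36 ± 0.20 and 0.56 ± 0.20 (unadjusted p = 0.1218 and 0.0296, adjusted p = 0.8239 and 1.0), and its other probe set gave 0.15 and 0.57. Hsd17b7, an enzyme of cholesterol and estradiol synthesis, differed by 0.48 ± 0.23 and 0.40 ± 0.23, with other probe sets between -0.56 and 0.34. Hsd17b1, which reduces estrone to estradiol, differed by 1.60 ± 0.69 and 1.24 ± 0.69 but is dim, at 5 and 21 on the vehicle arrays. The other nuclear receptors had medians of 0.15 and 0.09 over 25 genes, with 1 higher at an unadjusted p under 0.05 in BPA10 and 1 lower in BPA100. Nr5a2, a receptor of acinar cells and islets, read 88 and 53, 192 and 114, and 75 and 43 (1.10 ± 0.40 in BPA10, unadjusted p = 0.0277, adjusted p = 0.7636), with its other probe sets between -0.66 and 0.79. The part of the marker sums, acinar and islet among them, in the Nr5a2 value was not tested. The clock receptor gene Nr1d2 read 1257 and 1941, 1174 and 981, and 661 and 1077 (-0.89 ± 0.28 in BPA100, unadjusted p = 0.0169, adjusted p = 1.0). Nr2f1 differed by 0.73 ± 0.35 and 0.71 ± 0.35, and the glucocorticoid receptor gene Nr3c1 by 0.19 ± 0.12 in BPA100, where its 5 other probe sets ranged from -0.51 to 0.45.

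Genes with the pattern most like that of a bright receptor were sought over the 6 arrays among 13193 genes, as a description only, since 14 to 37 genes reached a Pearson r over 0.95 with each receptor. For Gper1 they were Dhcr7 (r = 0.987), the last enzyme of cholesterol synthesis, and Marchf7 (0.985), a ubiquitin ligase gene. For Esrra they were Zfp963 (0.997) and Arrb2 (0.993), an arrestin gene, and for Esrrb Slc35e4 (0.979) and Scfd2 (0.977). For Esrrg they were Rad54l (0.990), a DNA repair gene, and Fmod (0.988), for Pgr Wfdc15b (0.988) and Rbms3 (0.988), and for Ahr Snrk (0.989), a kinase gene, and Grhl2 (0.989), an epithelial transcription factor gene. Each r covers 3 groups of 2 arrays, and all genes share the scaling of an array.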

How the data were processed

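Islet RNA was labelled after amplification over 2 rounds of cDNA synthesis, as the protocols in the labels state, and each of 6 samples was hybridised to an Affymetrix array. The values deposited by the authors are a linear intensity for each probe set and array; the submitters' processing notes name MAS5 and give no version here. From the values, the mean of every array with 2% trimmed at each end was 150, so an intensity is relative to the rest of its array. Of 45101 probe sets, 64 controls were left out. Per the platform annotation, 34945 probe sets had 1 gene, 932 had several and 9160 had none. Names came from RefSeq by gene identifier, which matched 34741 of those with 1 gene. Detection calls were not used.

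Values were taken as log2(signal + 1) and fitted with limma 3.58.1 in R 4.3.3 (lmFit, eBayes with intensity trend, 3 group means over all arrays, 3 residual degrees of freedom) without a brightness filter, so that dim members were tested too. All tests were 2-sided, p-values were adjusted by Benjamini-Hochberg over 45037 probe sets, the threshold was 0.05, and the script was tested on simulated data. The number of arrays limits the precision, and an exact permutation test of 2 arrays against 2 reaches no lower than p = 0.333. Named list genes are the 3 with the smallest p in each comparison with vehicle, plus a fixed set of receptor partners and targets, of which Hsp90ab1 and Cyp19a1 are not analysed here. Other settings tried were quantile normalization, median centring, a pseudocount of 16, a replicate block, a fit without the intensity trend, a 40th percentile brightness filter, leaving out each array, only arrays of 1 mouse, and averaging the probe sets of a gene. The members and lists were chosen with earlier results of these data known.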

Additional observations from a re-analysis of the deposited data

How the results depend on the processing

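In the 5 comparisons 0 probe sets passed in limma under every alternative that refitted all probe sets, and no receptor's brightest probe set passed in any of them. Over 40 receptor differences on the log2 scale, 494 of 544 alternative values kept their direction or were 0 and 50 turned. Of those that turned, 30 did so on leaving out an array. Many of the 544 could not turn. The brightness filter, the fit without the intensity trend and the replicate block leave a difference as it was. So does leaving out an array of a group that the comparison does not use. None was called in any setting, and the cause was not tested. At an unadjusted p under 0.05, 1210 probe sets were higher and 1707 lower in BPA10 than in vehicle islets. The direction with more of them depended on which array was left out. With only arrays of 1 mouse, BPA10 was its replicate 1 and vehicle its replicate 2, so that setting compared 1 array with 1. Leaving out a BPA10 or vehicle array also left 1 array in its group, so counts from these fits are not given. The filter at the 40th percentile left no value for Esr1, Esr2, Nr1i2 and Nr1i3.

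Averaging the probe sets of a gene turned Esr1 to -0.14 for BPA100 against vehicle and -0.053 for both doses, Esrra to 0.057 for BPA10, 0.13 for BPA100 and 0.094 for both doses, Esrrg to -0.17 for BPA10, Pgr to 0.34 for BPA100, Ahr to -0.019, -0.21 and -0.11 for BPA10, BPA100 and both doses, and Nr1i2 to -0.17 for BPA100, -0.31 for BPA100 against BPA10 and -0.019 for both doses. Only arrays of 1 mouse left 1 vehicle and 1 BPA10 array, while BPA100 kept both of its arrays. There Esrrb turned to 0.083 for BPA10, Esrrg to 0.23 for BPA100 and 0.29 for both doses, and Nr1i2 to -0.38, -0.18 and -0.28 for BPA10, BPA100 and both doses. Median centring turned Esrrg to 0.022 for both doses.

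On leaving out each array, Esr2 ranged from -0.19 to 0.39 for both doses. Esrrb ranged from -0.30 to 0.19 for BPA10, -0.11 to 0.52 for BPA100, -0.059 to 0.58 for BPA100 against BPA10 and -0.17 to 0.32 for both doses. Esrrg ranged from -0.25 to 0.39, -0.41 to 0.23, -0.32 to 0.0097 and -0.33 to 0.31 in the same comparisons. Pgr ranged from -0.12 to 0.69 for BPA10, -0.45 to 0.054 for BPA100 and -0.16 to 0.25 for both doses, and Ahr from -0.20 to 0.094 for BPA100 against BPA10. Nr1i2 ranged from -0.22 to 0.235 for BPA10, -0.18 to 0.27 for BPA100, -0.12 to 0.20 for BPA100 against BPA10 and -0.20 to 0.25 for both doses. Esr1, Gper1 and Nr1i3 did not turn on leaving out an array, though Nr1i3 ranged from 0.585 to 1.46 for BPA10, and Esrra ranged from -0.31 to -0.28 for BPA10.

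Replicate numbers are shared between groups in the labels, but same-numbered arrays deviated together only weakly (correlations of 0.084, 0.08 and 0.041), so the numbers were not taken as pairs. With the replicate number as a block, 0 probe sets passed in any comparison. Each receptor difference was as before (0.48 for Gper1 in BPA10). The design fixes this, since every group holds 1 array of each number, so it is no check on the differences.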
